A study of Mus musculus with 36 samples.

Results

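Comp, Thbs4, Angptl7, Chad and Cilp2 encode secreted proteins of tendon and cartilage matrix, and their transcripts were measured here in muscle stem cells. The 5 genes were taken by symbol from a deposited table of 11337 genes, each was found once, and their levels in 36 libraries are described. They were selected on their RPKM in these same libraries (reads per kilobase of transcript, scaled to sequencing depth), and which of the differences below chose them is not recorded. Every level and difference of the 5 genes is therefore given as a description, without a test, and tests are used for other genes.

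Tendon is built from parallel type I collagen fibrils, made by tenocytes under the transcription factors scleraxis (Scx) and Mohawk (Mkx), and tenomodulin (Tnmd) and fibromodulin (Fmod) are among the proteins by which these cells are recognised. Cartilage oligomeric matrix protein (Comp, also called thrombospondin 5) and thrombospondin 4 (Thbs4) are pentameric glycoproteins that bind collagen, and thrombospondin 4 is also found where muscle joins tendon. Chondroadherin (Chad) is a leucine-rich repeat protein that binds collagen and integrin, Cilp2 belongs to the cartilage intermediate layer proteins, and Angptl7 is a secreted member of the angiopoietin-like family.

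Muscle stem cells, the satellite cells that rebuild muscle fibres, came from male mice of strain C56BL/6 as the sample labels spell it (C57BL6 in the series' design), with 1 polyA RNA library from each mouse. In the wheel cohort of 21 mice, wild type for Ccnd1, the cage wheel was locked or free for 3 weeks, and hindlimb cells were sorted as viable, VCAM+ and CD31-, CD45- and Sca1-. It held 6 young (3 months) and 7 old (18 months) mice with a locked wheel, and 3 young and 5 old mice whose wheel turned. The Ccnd1 cohort was made up of 15 mice without exercise, in which every mouse carried Pax7_CreERT2 and R26R_YFP and received tamoxifen, and YFP+ viable cells were sorted 6 weeks later. Cre was thus made only where Pax7 is expressed, and the controls carried the same Cre and reporter. This cohort held 3 young mice with Ccnd1_+/+ (WT), 4 with Ccnd1_+/flox (HET), 5 with Ccnd1_flox/flox (KO), and 3 old WT mice. Ccnd1 encodes cyclin D1, which drives entry into the cell cycle.

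The values are on a scale of RPKM, summed to 273837 to 350969 per library, and keep no read counts, so the depth of each library is unknown. The satellite cell transcription factor gene Pax7 was present in every library, at 14.2 to 32.5 RPKM. The 4 HET libraries stood apart from the rest: the 8 keratinocyte markers found summed to 85.0 to 206 RPKM there and to 5.31 to 32.4 RPKM in the other 32 libraries. On the log2 scale, 6 directions of variation were missing beside a model in which young WT and young locked-wheel mice form 1 group, as do old WT and old locked-wheel mice. How this arose is not stated, and the age differences of the 2 cohorts are not taken as independent of each other. The fits below take no account of the missing directions, so SE, spreads within groups and p values may be too small. In such bulk libraries fewer cells of a type and less RNA per cell cannot be told apart.

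The genes lie on 4 chromosomes in mm10. Comp (ENSMUSG00000031849, chromosome 8, 70373558 to 70382066, plus strand) and Cilp2 (ENSMUSG00000044006, chromosome 8, 69880369 to 69887687, minus strand) share a chromosome but not a strand. Thbs4 (ENSMUSG00000021702) spans 92751590 to 92794818 of chromosome 13 on the minus strand. Angptl7 (ENSMUSG00000028989, chromosome 4, 148495183 to 148500460, minus strand) lies inside Mtor, which runs on the opposite strand. Chad (ENSMUSG00000039084, chromosome 11, 94565047 to 94569127, plus strand) lies inside Acsf2, also on the opposite strand. In both cases the exons of the gene and its host shared 0 bases in GENCODE M21.

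Promoters are shown where RefSeq (GRCm38.p6) gave one, which was so for 4 of the 5 genes. Comp, Thbs4, Angptl7 and Chad followed each other closely from mouse to mouse, but no promoter was given for Comp. Cilp2, which is shown, followed them less closely. Each window runs 5′ to 3′ from 250 bases before to 50 bases after the start of transcription, and capitals mark the E-box CANNTG, the kind of site that basic helix-loop-helix factors such as scleraxis bind. The windows are chr13:92794769-92795068 (minus strand) for Thbs4, chr4:148500413-148500712 (minus strand) for Angptl7, chr11:94564797-94565096 (plus strand) for Chad and chr8:69887343-69887642 (minus strand) for Cilp2.
Thbs4: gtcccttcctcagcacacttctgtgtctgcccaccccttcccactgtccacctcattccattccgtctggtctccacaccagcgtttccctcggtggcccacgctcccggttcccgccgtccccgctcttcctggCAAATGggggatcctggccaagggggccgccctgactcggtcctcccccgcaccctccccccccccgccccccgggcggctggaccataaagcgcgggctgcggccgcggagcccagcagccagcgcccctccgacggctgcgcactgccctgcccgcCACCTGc
Angptl7: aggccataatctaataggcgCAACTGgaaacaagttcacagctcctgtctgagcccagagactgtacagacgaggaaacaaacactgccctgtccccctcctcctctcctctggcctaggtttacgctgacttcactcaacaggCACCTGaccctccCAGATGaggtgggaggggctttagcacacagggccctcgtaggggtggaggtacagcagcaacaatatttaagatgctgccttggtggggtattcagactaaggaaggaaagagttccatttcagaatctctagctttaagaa
Chad: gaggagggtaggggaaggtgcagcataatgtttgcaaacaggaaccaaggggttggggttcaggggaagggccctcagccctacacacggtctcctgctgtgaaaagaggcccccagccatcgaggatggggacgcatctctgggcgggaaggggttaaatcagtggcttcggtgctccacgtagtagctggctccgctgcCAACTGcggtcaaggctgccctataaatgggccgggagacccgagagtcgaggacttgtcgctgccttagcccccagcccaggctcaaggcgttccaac
Cilp2: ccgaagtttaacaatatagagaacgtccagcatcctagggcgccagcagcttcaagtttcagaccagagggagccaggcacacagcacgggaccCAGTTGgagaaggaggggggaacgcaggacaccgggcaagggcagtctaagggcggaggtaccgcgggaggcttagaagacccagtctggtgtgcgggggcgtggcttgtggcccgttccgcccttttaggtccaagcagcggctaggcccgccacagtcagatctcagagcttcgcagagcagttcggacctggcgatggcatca

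E-boxes, searched on both strands, numbered 3 in Angptl7, 2 in Thbs4 and 1 each in Chad and Cilp2, and 72.3% of all 32851 promoter windows held at least 1. The form CATCTG, or CAGATG on the other strand, which is contained in the first motif, occurred once in Angptl7 and in 17.2% of all windows. The Egr motif GCGGGGGCG occurred in Cilp2 (2.9% of all windows) and TATAAA in Chad (13.6% of all windows). No motif searched was shared by all 4 windows other than the E-box, which most promoters hold. The windows also differed in base composition, from 51.3% G and C with 4 CpG in Angptl7 to 72% with 24 CpG in Thbs4, beside medians of 52.7% and 7 CpG over all windows.

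The first feature of the data is the level of these transcripts. Thbs4, Chad and Angptl7 were the most abundant, Comp lay below them and Cilp2 was scarce. Over the 36 libraries Thbs4 ranged from 5.61 to 76.6 RPKM, Chad from 8.62 to 53.3, Angptl7 from 6.04 to 57.4, Comp from 1.84 to 15.7 and Cilp2 from 0.129 to 5.17. RPKM is per length, so these genes can be set side by side: Thbs4 lay above Comp in 36 of 36 libraries, at a median Comp to Thbs4 ratio of 0.218 (range 0.146 to 0.465). Angptl7 and Chad exchanged places, with Angptl7 the higher in 14 of 36 libraries.

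**Figure D1:**
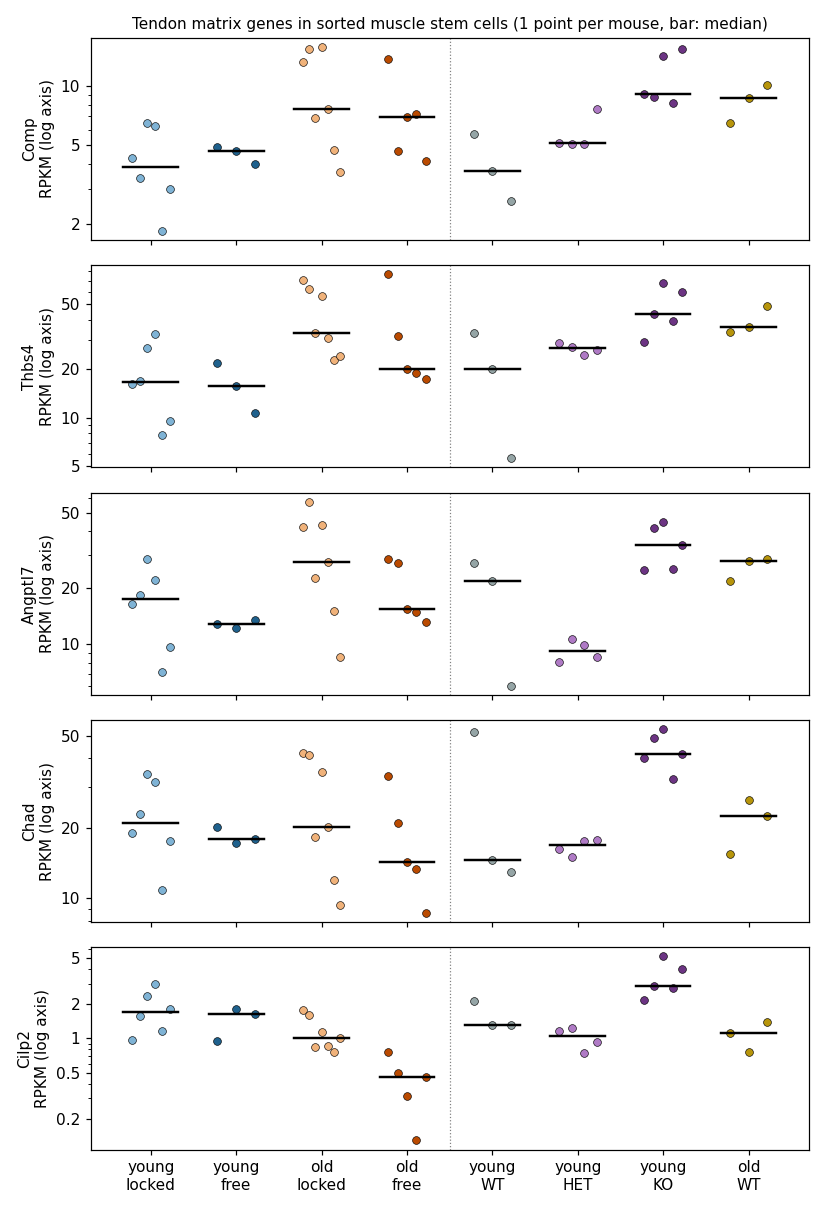
RPKM of each gene (vertical log axes) in the 8 groups, 1 point per mouse, with a bar at the median; the dotted line separates the wheel cohort (left) from the Ccnd1 cohort. The 5 KO libraries lie above all 4 HET libraries in every panel, and the libraries of the young and old locked-wheel groups are widely spread in every panel.

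The second feature is how far mice of the same group differed. In old mice with a locked wheel Angptl7 had a lowest value of 8.55, a median of 27.6 and a highest value of 57.4 RPKM. Chad there had 9.31, 20.1 and 41.9 RPKM, and Comp 3.68, 7.67 and 15.7 RPKM. The highest values came from the same mice: old locked-wheel replicates 1, 2 and 4 held the 3 highest levels of each of the 5 genes. Young locked-wheel replicates 3 and 4 likewise held the 2 highest levels of each of the 5 genes, and replicate 5 the lowest level of 4. Old free-wheel replicate 1 was highest of its 5 mice for all 5 genes.

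The pooled SD within groups, on the log2 scale, was 0.61 for Comp, 0.72 for Thbs4, 0.68 for Angptl7, 0.65 for Chad and 0.58 for Cilp2, against a median of 0.21 over all genes. Between 92.9% and 95.3% of genes had a smaller spread within groups. The spread was partly shared. After group means were taken out, the ratio of Comp to Chad had a pooled SD of 0.33, the smallest of all pairs and smaller than that of either gene alone. The ratio of Comp to Cilp2 had 0.62, larger than that of either gene alone. As a description with no test, Pearson correlations of log2 RPKM over the 36 libraries, which were processed together by the authors, were 0.69 to 0.90 for the 6 pairs without Cilp2. They were 0.81 to 0.87 for the same pairs after group means were taken out. The 4 pairs with Cilp2 had 0.21 to 0.63, and 0.46 to 0.62 after group means were taken out.

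Other tendon genes followed the same mice. The 5 log2 levels were each standardised and averaged in each library, and all other genes were ranked by their Pearson correlation with this mean over the 36 libraries. Tnmd, the tendon membrane protein tenomodulin, came first (0.91) and Fmod, the small collagen-binding proteoglycan fibromodulin, second (0.90). Cpxm2, a secreted carboxypeptidase family member, had 0.85, and Itgbl1, a secreted integrin beta-like protein, had 0.82. Next came Cilp (0.79), the relative of Cilp2, and 2 small leucine-rich proteoglycan genes, Aspn (asporin, 0.78) and Kera (keratocan, 0.74). Krr1, a ribosome biogenesis factor, had 0.72, Fgfrl1, an FGF receptor-like protein without a kinase domain, 0.68, and the collagen-degrading protease gene Ctsk 0.67. Of these 10 genes 5 (Tnmd, Fmod, Cpxm2, Cilp and Kera) are on the list of tendon and ligament genes, which was drawn up with earlier results of these data known.

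**Figure D2:**
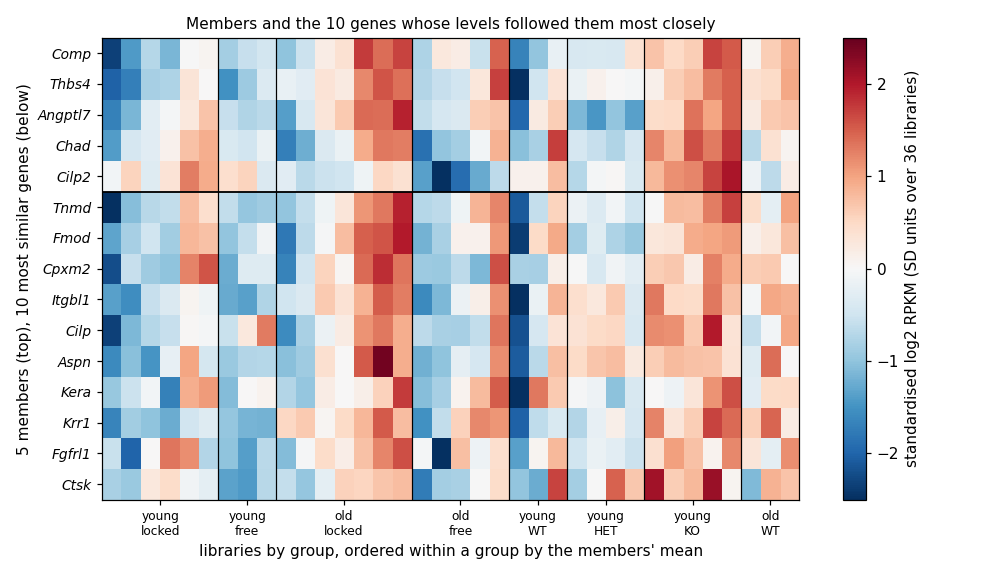
Log2 RPKM of the 5 genes (top rows) and of the 10 genes most like them (lower rows), each standardised over 36 libraries (colour, SD units), with libraries in columns by group and ordered within a group by the mean of the 5 genes. Within the locked-wheel groups the rows from Comp to Chad and those of Tnmd and Fmod darken together towards the right, and Cilp2 is lowest in the old free-wheel mice.

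Tnmd spanned 2.56 to 27.1 RPKM and Fmod 14.2 to 144 RPKM over the libraries, so both were as plainly present as the 5 genes themselves. Tnmd lay at 2.56 RPKM in young locked-wheel replicate 5, where Comp lay at 1.84, and at 27.1 RPKM in old locked-wheel replicate 2, where Angptl7 reached 57.4. The nearest genes of each of the 5 by the same measure named these tendon genes again. Thbs4 was nearest to Tnmd (0.92), Angptl7 to Fmod (0.92), Chad to Fmod (0.81) and Comp to Thbs4 (0.90). Cilp2 was the exception. Its 3 nearest genes were Cic, a transcriptional repressor (0.78), Wif1, a secreted Wnt inhibitor (0.75), and Ctif, a translation initiation factor (0.74), none of them on the tendon list.

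Of the 23 tendon and ligament genes measured besides the 5, 10 had a correlation with the mean of the 5 genes above 0.43, the level that 5.0% of all other genes exceed. They included Col11a2, a collagen chain of cartilage and tendon (0.66), the joint lubricant gene Prg4 (0.65) and the tendon master factor Scx (0.55). The list also held genes that did not follow, such as Mkx (0.28), the tenascin gene Tnc (-0.14) and Thbs2 (0.03). Of the 10 small leucine-rich proteoglycan genes 4 exceeded that level, among them Dcn, decorin (0.63), and of the 11 cartilage matrix genes 3 did. These lists are not separate from the tendon list. All 3 of these cartilage genes (Cilp, Col11a2 and Prg4) are also on it, as are the proteoglycan genes Fmod and Kera. Close relatives by family did not follow: 0 of 6 other thrombospondin and angiopoietin-like genes exceeded it.

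Lists of genes that mark other cells had between 0% and 20% of their members above that level. Fibroblast and fibro-adipogenic progenitor markers had a median correlation of 0.03 with 3 of 19 above that level. These 3 were Dcn (0.63), Smoc2 (0.57) and Mfap5 (0.46). The defining receptor gene Pdgfra had 0.03 at 0.289 to 1.26 RPKM, and the collagen chain gene Col1a1, at 13.5 to 290 RPKM, had -0.06. After group means were taken out, Pdgfra had 0.27, the middle value of the fibroblast list, and Col1a1 had 0.29. The fibroblast list then ran from -0.36 (Col3a1) to 0.78 (Dcn). The tendon list then ran from -0.48 (Htra1) to 0.95 (Tnmd), with a middle value of 0.32 (Fibin). By this measure the middle values of both lists lay close together. Satellite cell markers had a median of -0.01, and Pax7 had -0.18. Schwann cell markers had a median of 0.18 with 2 of 10 above the level, Gfra3 (0.44) and the glial transcription factor gene Sox10. Sox10 ranged from 0.192 to 9.45 RPKM and had a correlation of 0.54, or 0.76 after group means were taken out. Pericyte and smooth muscle markers had a median of 0.11 with 2 of 12 above it, Myh11 (0.46) and Kcnj8 (0.45), and satellite cell markers had 1 of 18. Endothelial, haematopoietic, myofibre and keratinocyte markers had 0 above it. The median over all other genes was 0.05.

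**Figure D3:**
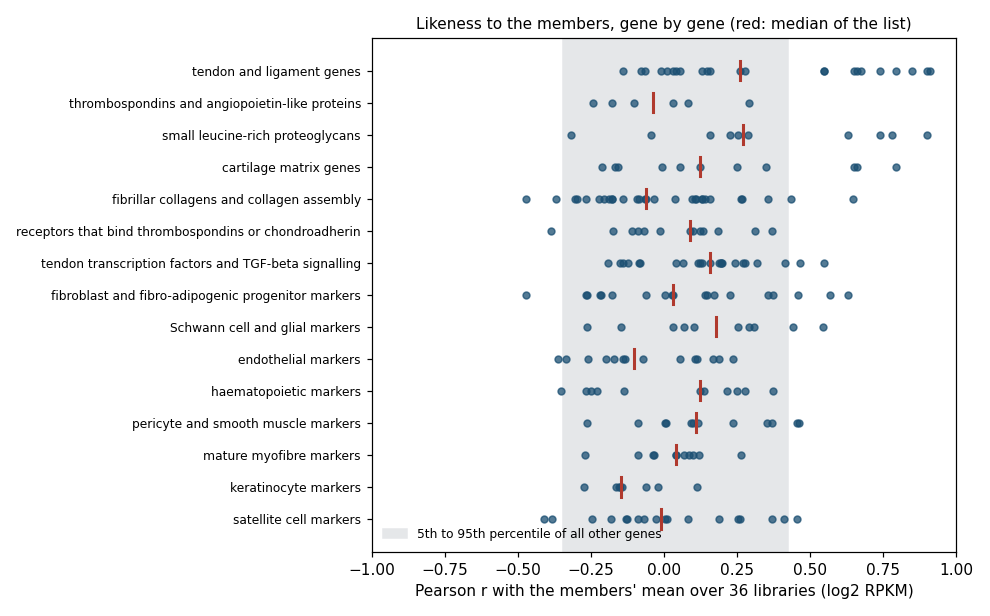
Pearson correlation of each listed gene (points) with the mean of the 5 genes over 36 libraries (horizontal axis), by gene list, with a red bar at the median of the list and a grey band from the 5th to the 95th percentile of all other genes. The tendon list and the small leucine-rich proteoglycans have points up to 0.91 and 0.90, the thrombospondin relatives, myofibre and keratinocyte markers stay inside the band, and each of the other 6 marker lists has at least 1 point outside it. Fmod, at 0.90, is on the tendon list and also among the proteoglycans.

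**Figure D4:**
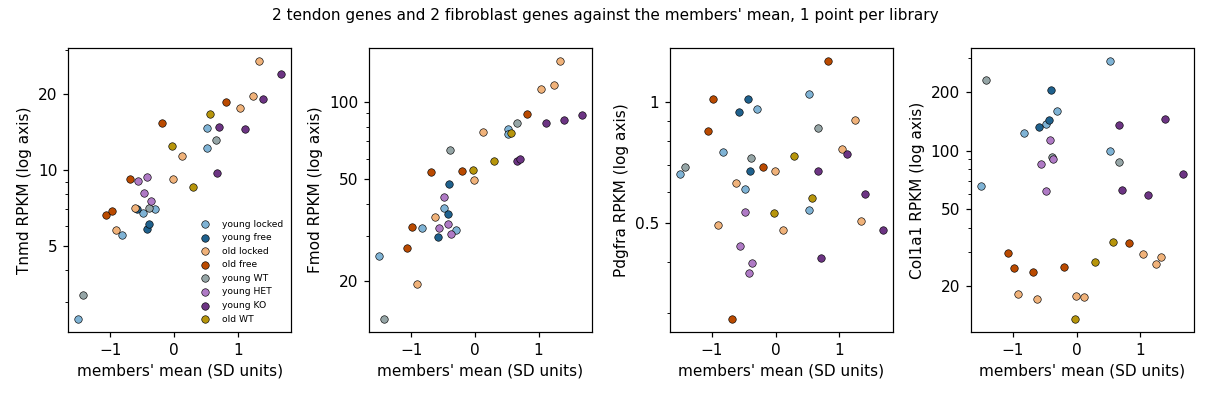
RPKM of Tnmd, Fmod, Pdgfra and Col1a1 (vertical log axes) against the mean of the 5 genes in SD units (horizontal axes), 1 point per library, coloured by group. Tnmd and Fmod rise along the mean in every group with a wide range. Pdgfra shows little slope over all libraries together (correlation 0.03, or 0.27 after group means were taken out). Col1a1 is at 58.8 RPKM or more in all young and at 33.5 RPKM or less in all old libraries.

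In the Ccnd1 cohort the 5 genes were highest in KO mice. The comparison of KO with HET mice asks what loss of the second Ccnd1 copy goes with in young stem cells. Angptl7 was 24.8, 41.7, 45.1, 25.3 and 33.7 RPKM in KO replicates 1 to 5, and 8.11, 10.6, 9.88 and 8.60 RPKM in HET replicates 1 to 4. The lowest KO library was thus above the highest HET library, and the fitted difference was 1.84 ± 0.35 on the log2 scale (SE), or 3.58-fold. Chad was 40.1, 48.6, 53.3, 32.5 and 41.8 RPKM in KO and 16.3, 15.0, 17.7 and 17.7 RPKM in HET mice, again without overlap (1.36 ± 0.32). Cilp2 was 2.16, 2.88, 5.17, 2.73 and 4.00 RPKM in KO and 1.17, 1.24, 0.739 and 0.924 RPKM in HET mice, a difference of 1.70 ± 0.26. From lowest to highest the HET mice spanned 1.31-fold in Angptl7, 1.18-fold in Chad and 1.67-fold in Cilp2. Among KO mice, replicate 3 stood highest in 4 of the 5 genes.

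The thrombospondins differed less between KO and HET. Comp was 9.14, 8.74, 14.2, 8.16 and 15.4 RPKM in KO and 5.13, 5.10, 5.07 and 7.66 RPKM in HET mice (0.93 ± 0.25). Thbs4 was 29.1, 43.5, 67.5, 39.4 and 59.6 RPKM in KO and 28.7, 27.3, 24.5 and 26.3 RPKM in HET mice (0.78 ± 0.39), where the lowest KO library was barely above the highest HET library. Groups did not overlap for 5 of the 5 genes, against 10.1% of all genes. By limma over all genes, at an adjusted p under 0.05, 4 of the 5 were called, against 6.04% of all genes, and since the genes were chosen with these values known nothing is read from either count. The count of 4 was 2 or 3 without HET replicate 1, 2, 3 or 4 or without KO replicate 2, 3 or 5.

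The tendon and ligament list was tested in the same fit and leaves out the 5 genes. The list was drawn up with earlier results of these data known and holds genes that followed the 5, such as Cpxm2. Its counts, here and in the other comparisons, are therefore not independent of the choice of the 5. In KO against HET mice limma called 5 of its 23 genes higher and 0 lower at an adjusted p under 0.05 (12 at an unadjusted p under 0.05), or 21.7%, against 6.04% of all genes called in either direction. The median of the list was 0.48 on the log2 scale and that of all genes 0.08. Col11a2 was higher by 1.56 ± 0.27 (limma adjusted p = 0.0052). It was scarce, at 0.211 to 1.86 RPKM over all libraries, and the number of reads behind it is unknown. Mkx was higher by 1.01 ± 0.21 (limma adjusted p = 0.011), at 1.70 ± 0.122 in HET and 3.46 ± 0.459 RPKM in KO mice (SD, n = 4 and 5). Young WT mice had Mkx at 3.65 ± 1.34 RPKM (SD, n = 3), so KO mice lay near WT mice and HET mice below both. The other 3 called genes were Scx (0.96), Cpxm2 (0.54) and Myoc (1.16), the last 2 encoding secreted proteins, and these 3 are named after their values were seen. Tnmd (0.89) and Fmod (1.10) did not pass. The count was 3 without HET replicate 2 or 4, without KO replicate 3 or 5, or with median-of-ratios scaling, under which 2 of Comp, Thbs4, Angptl7, Chad and Cilp2 were called in place of 4.

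Keratinocyte markers moved with this comparison. All 8 that were found were lower in KO than in HET mice by limma, at sums of 5.31 to 9.33 against 85.0 to 206 RPKM. Krt14, a keratin of basal epidermis, lay at 31.9 to 95.8 RPKM in HET mice and at most at 0.0471 RPKM in KO mice. The part of this in the result was not tested. Fibroblast markers summed to 1248 to 1603 RPKM in KO and 1086 to 1265 RPKM in HET mice, with 1 of 19 called higher. Of the pericyte and smooth muscle markers 1 of 12 and of the satellite cell markers 2 of 18 were called higher in KO mice, and the other 4 marker lists had 0 called.

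The difference between KO and WT means does not involve the HET values, although the HET libraries share in the estimate of the spread. Comp was 5.71, 3.72 and 2.61 RPKM in young WT replicates 1 to 3, all below the lowest KO library, and the difference was 1.49 ± 0.27, or 2.81-fold. Cilp2 was 2.11, 1.32 and 1.32 RPKM in WT mice, also below all KO libraries (1.07 ± 0.28). Thbs4 was 33.5, 19.9 and 5.61 RPKM in WT mice (1.56 ± 0.43), Angptl7 27.2, 21.7 and 6.04 RPKM (1.12 ± 0.38) and Chad 51.6, 14.6 and 13.0 RPKM (1.00 ± 0.35). For these 3 genes WT replicate 1 overlapped the KO libraries and the group was wide.

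WT replicate 1 was highest of the 3 for all 5 genes and WT replicate 3 lowest for 4, and both set the size of the difference. Without WT replicate 3 the KO difference was 0.83 for Thbs4 and 0.45 for Angptl7, and without WT replicate 1 it was 1.63 for Chad. Groups did not overlap for 2 of the 5 genes, against 17.8% of all genes. Limma called 3 of the 5, against 6.99% of all genes, and nothing is read from either count. The count of 3 was 5 without WT replicate 1, 1 without WT replicate 2, 0 without WT replicate 3, and 1 without KO replicate 3 or 5. Of the 23 tendon and ligament genes 2 were called higher and 0 lower by limma, or 8.7%, against 6.99% of all genes. At an unadjusted limma p under 0.05 there were 9 of the 23, and 2910 of all 11337 genes. The median of the list was 0.30 against 0.02 for all genes. The 2 called genes were Clu, the secreted chaperone clusterin (0.58 ± 0.10, limma adjusted p = 0.0098), and Cpxm2 (0.72 ± 0.16, limma adjusted p = 0.022). The count was 4 without WT replicate 1 or with 1 RPKM added, 1 with only the groups compared or all 36 libraries in the fit, and 0 without WT replicate 2 or without WT replicate 3. Among the markers of other cells limma called 1 of 10 Schwann cell genes, Gfra3 (1.97 ± 0.48, limma adjusted p = 0.029), and 1 of 14 endothelial genes, Cldn5 (0.91 ± 0.18, limma adjusted p = 0.013), both higher in KO mice. The other 6 marker lists had 0 called, with 0 keratinocyte and 2 fibroblast markers at an unadjusted p under 0.05. The part of these in the result was not tested.

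HET and WT mice differed in both directions. Comp and Thbs4 lay higher in HET by 0.57 ± 0.28 and 0.78 ± 0.45, and Angptl7, Chad and Cilp2 lay lower, at -0.72 ± 0.39, -0.36 ± 0.37 and -0.63 ± 0.30. All 4 HET values of Cilp2 were below the lowest WT value, 1.32 RPKM, and the other 4 genes overlapped, so that groups were apart for 1 of the 5, against 21.2% of all genes. Limma called 0 of the 5 (0 at an unadjusted p under 0.05), against 5.39% of all genes. Without WT replicate 1 the difference of Chad turned to 0.27, and without WT replicate 3 that of Thbs4 was 0.045, that of Angptl7 -1.39 and 1 gene was called lower.

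Of the 23 tendon and ligament genes limma called 1 higher and 1 lower in HET against WT mice. This was 8.7% of the list, against 5.39% of all genes. Clu rose by 0.83 ± 0.11 (limma adjusted p = 0.0016), and Mkx fell by 1.03 on the log2 scale (SE 0.23, limma adjusted p = 0.026). The 8 keratinocyte markers were all called higher in HET than in WT mice (sum 6.76 to 8.28 RPKM in WT), 4 of 19 fibroblast and 2 of 18 satellite cell markers were called lower, and 1 Schwann cell, 1 endothelial and 1 pericyte marker were called higher. The part of these in the result was not tested. The count of the list was 1 without HET replicate 2, HET replicate 4 or WT replicate 2.

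**Figure D5:**
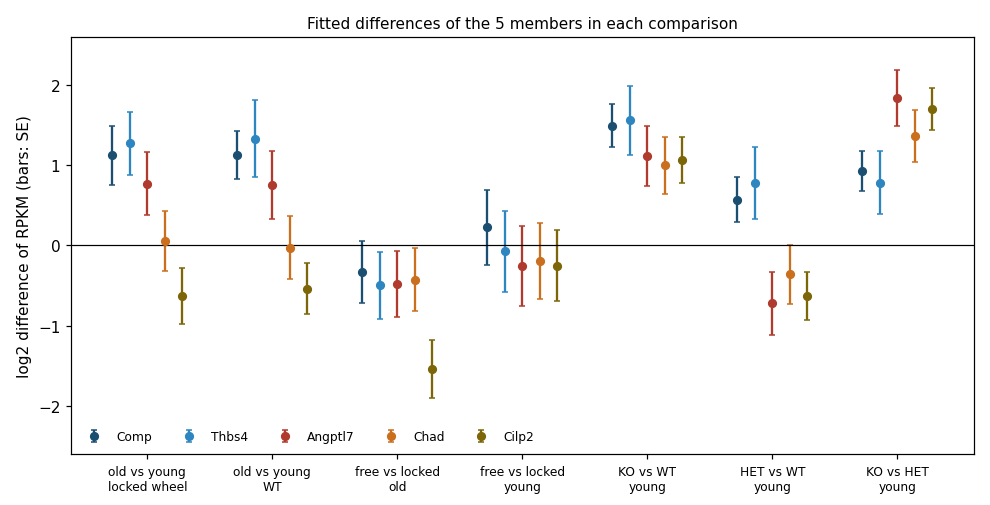
Fitted log2 difference of RPKM (vertical axis, bars 1 SE) of the 5 genes in 7 comparisons. KO against HET and KO against WT have all 5 points above 0, the age comparisons run from Thbs4 at 1.27 and 1.33 down to Cilp2 at -0.63 and -0.54, and Cilp2 alone lies far below 0 for the wheel in old mice.

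Age was compared in locked-wheel mice of 18 and 3 months. In the fit the thrombospondins lay higher in old mice and Cilp2 lower, and the difference of Chad was smaller than its SE. Comp had a lowest value of 1.84, a median of 3.88 and a highest value of 6.49 RPKM in young mice, against 3.68, 7.67 and 15.7 RPKM in old mice, a difference of 1.12 ± 0.37 (2.17-fold). Thbs4 had 7.81, 16.5 and 33.0 RPKM in young and 22.7, 33.2 and 70.6 RPKM in old mice (1.27 ± 0.40, 2.41-fold). Groups overlapped for both genes, and for all of the 5; 12.4% of all genes had groups that did not.

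Angptl7 lay between the extremes, at a median of 17.4 RPKM in young and 27.6 RPKM in old locked-wheel mice (0.77 ± 0.39). Chad had medians of 21 and 20.1 RPKM (0.054 ± 0.37), and without young locked-wheel replicate 5 its difference was -0.14. Cilp2 had medians of 1.69 and 1.00 RPKM and a difference of -0.63 ± 0.35. Limma called 2 of the 5, Comp and Thbs4, against 38.3% of all genes, and nothing is read from this count. It was 3 without old locked-wheel replicate 7 and 1 without young locked-wheel replicate 5.

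Among the 23 tendon and ligament genes limma called 2 higher and 4 lower with age in locked-wheel mice, or 26.1%, against 38.3% of all genes, with a median of 0.09 against 0.01. Mkx rose by 0.87 ± 0.18 (limma adjusted p = 0.00064) and Myoc by 0.68 ± 0.26 (limma adjusted p = 0.043), while the protease gene Htra1 (-0.81 ± 0.14, limma adjusted p = 0.00012) and the matrix gene Abi3bp (-0.39 ± 0.09, limma adjusted p = 0.0016) were lower. Tnmd (0.80) and Fmod (0.62) did not pass. Of the 6 other thrombospondin and angiopoietin-like genes limma called 3 lower and 0 higher, or 50% against 38.3% of all genes, with Thbs3 at -0.92 ± 0.17 (limma adjusted p = 0.00021) and Angptl2 at -0.78 ± 0.14 (limma adjusted p = 0.00015). Of the 10 small leucine-rich proteoglycan genes limma called 4 higher and 0 lower, or 40%, near the 38.3% of all genes. Among them were Ogn, osteoglycin (0.66 ± 0.12, limma adjusted p = 0.00018), and Dcn (0.98 ± 0.20, limma adjusted p = 0.00085).

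Of 29 fibrillar collagen and collagen assembly genes, limma called 13 lower and 1 higher in old mice, or 48.3%, with a median of -0.30. Col3a1, a chain of type III collagen, was at -1.08 ± 0.10 (limma adjusted p = 1.1e-07), and the crosslinking enzyme gene Lox at 0.64 ± 0.11 (limma adjusted p = 0.00012). Of the 13 receptors for thrombospondins or chondroadherin 2 rose and 4 fell, with the integrin gene Itgav at 0.58 ± 0.09 and the endocytic receptor gene Lrp1 at -0.51 ± 0.08 (limma adjusted p = 4.1e-05 and 4.9e-05). Markers of other cells were also called with age, but only the fibroblast and satellite cell lists exceeded the 38.3% of all genes. Myofibre markers had 4 of 11 lower (36.4%, sums of 58.6 to 208 RPKM in old and 143 to 768 in young mice). Keratinocyte markers had 3 of 8 higher (37.5%, 14.2 to 21.5 against 6.15 to 9.79 RPKM). Fibroblast markers had 5 of 19 higher and 5 lower (52.6%), and satellite cell markers 2 of 18 higher and 7 lower (50%). Endothelial markers had 4 of 14 higher and 1 lower (35.7%), and pericyte markers 1 of 12 higher and 2 lower (25%). Schwann cell markers had 2 of 10 higher and 1 lower (30%), and haematopoietic markers 1 of 11 higher (9.09%). The part of these in the differences of the 5 genes was not tested.

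In the Ccnd1 cohort, old WT mice had Comp at 6.49, 8.67 and 10.2 RPKM, all above the 3 young WT mice (1.12 ± 0.30). Thbs4 was 34.0, 36 and 48.7 RPKM in old WT mice, also above the young ones (1.33 ± 0.48). Angptl7 was 21.7, 27.6 and 28.5 RPKM (0.75 ± 0.42), Chad 15.4, 26.4 and 22.6 RPKM (-0.027 ± 0.39) and Cilp2 1.12, 0.768 and 1.39 RPKM (-0.54 ± 0.32), each overlapping the young mice. Groups did not overlap for 2 of the 5 genes, against 37% of all genes, and limma called 1 of the 5, Comp, against 15.8% of all genes. Given the missing directions of variation, these differences are not taken as a second measurement of those in locked-wheel mice. Without young WT replicate 3 the difference of Angptl7 was 0.086 and that of Thbs4 0.60, and without young WT replicate 1 that of Chad was 0.61. The count of called genes was 2 without young WT replicate 1 and 0 without young WT replicate 2 or 3 or old WT replicate 2 or 3.

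Of the 23 tendon and ligament genes limma called 2 higher and 1 lower in old WT mice, namely Mkx (1.05 ± 0.25, limma adjusted p = 0.013), Myoc (0.99 ± 0.31, limma adjusted p = 0.043) and Htra1 (-0.81 ± 0.17, limma adjusted p = 0.0073). The 3 called genes were 13% of the list, against 15.8% of all genes. The median of the list was 0.22 against -0.01 for all genes. The count of the list was 6 without young WT replicate 1, 1 without young WT replicate 3 and 0 with only the groups compared in the fit. Of the markers of other cells, 3 of 14 endothelial and 1 of 8 keratinocyte genes were higher, 2 of 12 pericyte and 3 of 18 satellite cell genes were lower, and 2 of 19 fibroblast genes were higher and 3 lower. The other 3 marker lists had 0 called by limma (4 Schwann cell, 0 haematopoietic and 0 myofibre markers at an unadjusted p under 0.05). The part of these in the result was not tested.

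The wheel comparison asks what voluntary running goes with in stem cells. In old mice Cilp2 had the largest difference of the 5. It was 0.768, 0.499, 0.315, 0.129 and 0.464 RPKM in free-wheel replicates 1 to 5, and had a lowest value of 0.758, a median of 1.00 and a highest value of 1.76 RPKM in locked-wheel mice. The groups touched at a single point, free-wheel replicate 1, and the difference was -1.54 ± 0.36, or 2.9-fold lower. With 1 RPKM added before the logarithm it was -0.57, since the level is low, and the number of reads behind it is unknown.

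The other 4 genes overlapped widely between old free-wheel and old locked-wheel mice. Thbs4 was 76.6, 32.1, 20.1, 18.9 and 17.3 RPKM in the free-wheel mice (-0.50 ± 0.42) and Comp 13.7, 4.69, 6.92, 7.20 and 4.16 RPKM (-0.33 ± 0.39). Angptl7 was 28.6, 27.1, 15.4, 14.9 and 13.2 RPKM (-0.48 ± 0.41) and Chad 33.6, 21.1, 14.2, 13.3 and 8.62 RPKM (-0.43 ± 0.39). All 4 lay lower in the fit, by less than the pooled SD of mice within a group. Without free-wheel replicate 1, the highest for each gene, the difference of Thbs4 was -0.87 and that of Comp -0.59. Groups overlapped for all 5 genes, while 3.94% of all genes had groups that did not. Limma called 1 of the 5, Cilp2, against 7.39% of all genes, and nothing is read from this count.

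Of the 23 tendon and ligament genes limma called 0 higher and 1 lower for the wheel in old mice (7 at an unadjusted p under 0.05). This was 4.35% of the list, against 7.39% of all genes, and the median was -0.04 against -0.01 for all genes. The called gene was Mkx, which fell by 0.71 on the log2 scale (SE 0.19, limma adjusted p = 0.026), from 6.93 ± 1.28 (SD, n = 7) to 4.23 ± 0.802 RPKM (n = 5). The count was 0 without old free-wheel replicate 3 or 5 or old locked-wheel replicate 3, and 2 without old locked-wheel replicate 2 or with only the groups compared in the fit. Of 29 fibrillar collagen and assembly genes limma called 5 higher and 2 lower, with a median of 0.15, and Col3a1 was at 0.88 ± 0.10 (limma adjusted p = 6.3e-05). Of the pericyte and smooth muscle markers 3 of 12 were lower in free-wheel mice, among them Pdgfrb (-0.65) and Abcc9 (-0.52), and 1 was higher (sums of 732 to 1067 against 660 to 787 RPKM). Of the endothelial markers 3 of 14 were higher (sums of 315 to 435 against 253 to 355 RPKM), of the fibroblast markers 3 of 19 were higher and 2 lower, and of the satellite cell markers 1 of 18 was lower. Limma called 0 Schwann cell, haematopoietic, myofibre or keratinocyte markers (1, 2, 1 and 2 at an unadjusted p under 0.05). The part of these in the result was not tested.

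In young mice the wheel went with small differences. Comp was 4.93, 4.65 and 4.00 RPKM in free-wheel mice (0.22 ± 0.47), Thbs4 21.8, 15.6 and 10.7 RPKM (-0.075 ± 0.50) and Angptl7 12.8, 12.2 and 13.5 RPKM (-0.26 ± 0.50). Chad was 20.2, 17.2 and 18.0 RPKM (-0.20 ± 0.47) and Cilp2 0.947, 1.81 and 1.64 RPKM (-0.25 ± 0.44). Every free-wheel value of each gene except Cilp2 in replicate 1 lay inside the range of the locked-wheel mice, and groups overlapped for all 5, while 9.55% of all genes had groups that did not. Limma called 0 of the 5 (0 at an unadjusted p under 0.05), against 1.12% of all genes. The direction of Thbs4 turned without free-wheel replicate 3 (0.18) and that of Cilp2 without free-wheel replicate 1 (0.036).

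Of the 23 tendon and ligament genes limma called 0 for the wheel in young mice (6 at an unadjusted p under 0.05), and 1 was called lower without free-wheel replicate 3. The difference of the wheel effects, old minus young, was -1.29 ± 0.57 for Cilp2 and -0.22 to -0.55 for the other 4. Angptl7 was at 0.0056 without young locked-wheel replicate 5, and Chad at 0.0036 without old free-wheel replicate 5. Limma called 0 of the 5 for it (1 at an unadjusted p under 0.05), against 0.00882% of all genes, and 0 of the 23 tendon and ligament genes (0 at an unadjusted p under 0.05).

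Across all 8 groups the medians of all 5 genes were highest in KO mice. For Comp, Thbs4 and Angptl7 old WT and old locked-wheel mice came next, and for Chad and Cilp2 young locked-wheel mice were ahead of old locked-wheel mice. Most neighbours in these orders overlapped. The exceptions were Chad, where KO lay above old WT without overlap, Comp, where HET lay above young free-wheel mice, and Angptl7, where young free-wheel lay above HET mice. The share of all genes without overlap was not computed for these pairs. The cohorts also differ in how cells were sorted and in the Cre, reporter and tamoxifen of the Ccnd1 cohort. Across cohorts these cannot be told apart from the group. Angptl7 was lowest in HET mice, Chad and Cilp2 in old free-wheel mice, Thbs4 in young free-wheel mice and Comp in young WT mice.

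The authors' deposited table also gives a correlation coefficient of each gene with Ccnd1. In the authors' deposited table it was -0.54 for Cilp2, -0.49 for Chad, -0.41 for Thbs4, -0.39 for Angptl7 and -0.36 for Comp. All 5 were below 0, and between 4.36% and 14.72% of genes in the authors' deposited table had a lower coefficient. Which samples entered these coefficients is not stated.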

How the data were processed

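PolyA RNA libraries were made from 10 ng of RNA with an oligo(dT) primed kit and read as paired 101 bp ends, per the labels' protocols. Per the submitters' processing notes, the authors used Trim Galore, STAR with mm10, and featureCounts of Subread; versions and the strand setting are not stated there. The authors deposited RPKM values without zeros (0.00144 to 10531), and a score, the correlation coefficient with Ccnd1. After centring, log2 values had rank 29 of 35, and 24 of 30 beside 6 merged groups; how this arose is not given. RPKM keeps no counts, so no counting interval is given.

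Log2 RPKM without a pseudocount was fitted with limma 3.58.1 (trend and robust eBayes, statmod 1.5.0, R 4.3.3), with 1 mean per group within each cohort. Benjamini-Hochberg adjustment covered all 11337 genes and an adjusted p under 0.05 was called. Python 3.11.15 with numpy 2.4.6, pandas 2.3.3 and matplotlib 3.10.9 did the rest. The script was tested on simulated data. Each mouse is a replicate.

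The 5 genes and all lists were chosen with earlier results of these data known. Named genes are the 5, up to 2 called genes per list and direction by lowest p, the 10 genes most like the mean of the 5 and the 3 most like each; other genes named (defining markers, and examples such as Tnc, Thbs2, Scx and Sox10) were picked after their values were seen. In the 2 lists with older symbols, 3 genes were matched through RefSeq synonyms. Alternatives were pseudocounts of 1 and 0.1 RPKM, median-of-ratios scaling, a mean of at least 1 RPKM, other sample sets, plain eBayes, each mouse left out and the replicate number as a block. Replicate numbers were not taken to pair mice.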

Additional observations from a re-analysis of the deposited data

Results flagged for a closer look

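In 25 sets of 4 to 10 mice (5 genes in 5 groups), 1 library stood far from the others. Comp in HET replicate 4 was at 7.66 RPKM, and its gap to the next HET mouse was 0.968 of the range of the group on the log2 scale. Chance flags about 1 in 20 such sets.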

How the results depend on the processing

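The median difference of the 5 genes moved by less than the spread between mice in 32 of 32 values under other settings and in 83 of 85 omissions of 1 mouse. In HET against WT it ranged from -0.72 to 0.27 over omissions, and with age in the Ccnd1 cohort from 0.086 to 1.17. Among single genes, pseudocount 1 RPKM moved Cilp2 (KO against HET 1.09, and -0.41 for the difference of wheel effects). The count of tendon and ligament genes called was 6 for age in the wheel cohort and 5 to 7 over omissions. For the wheel in old mice it was 2 when only the groups compared were fitted (0 to 2 over omissions), and in young mice 0 to 1 over omissions. For KO against WT it was 4 with 1 RPKM added, 1 with only the groups compared, 1 with all 36 libraries and 0 with the replicate block (0 to 4 over omissions). For HET against WT it was 1 to 3 over omissions. For KO against HET it was 3 with median-of-ratios scaling and 2 with the replicate block (3 to 5 over omissions), and 2 of the 5 genes were called in place of 4 under each of these. For age in the Ccnd1 cohort it was 0 with only the groups compared (1 to 6 over omissions). The cause was not tested, other than that fewer mice entered the fits of single pairs of groups. Correlations of the deviations of same-numbered mice ran from -0.26 to 0.30. They were over 0.1 in 4 of 5 pairs for the wheel in old mice and in 0 or 1 pair of each other comparison, so in no comparison in every pair. With the replicate block 0 of the 5 genes were called for KO against WT in place of 3, and 3 in place of 2 for age in the wheel cohort. Omissions act on values already adjusted by the authors.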
